A study of Rattus norvegicus with 4 samples.

Results

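Voltage-gated potassium channel genes were described across 7 classes of nuclei of the adult rat ventral tegmental area, a midbrain region of dopamine, GABA and glutamate neurons and glia. Members were all genes of the Kcna, Kcnb, Kcnc, Kcnd, Kcng, Kcnh, Kcnq, Kcns and Kcnv families by symbol, 37 of 32883 features. The rule used names only and no cut-off on a measured value, but the families were chosen with earlier results of these data known. Tissue came from experimentally naive Sprague-Dawley rats aged 90 to 120 days, 2 female and 2 male libraries, each a pool of 3 animals of that sex, so the library was the replicate and values of single animals cannot be told apart. P-values rest on 4 such pools between classes and on 2 against 2 between sexes. Frozen tissue was lysed, and the nuclei were stained, sorted and run on 10x Genomics 3' chemistry.

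These channels open when the membrane depolarises and let potassium out of the cell, which ends the action potential and sets the interval before the next. The Kv1 (Kcna) channels are low-threshold channels of axons, Kv3 (Kcnc) channels open and close fast and are known from rapidly firing neurons, and Kv4 (Kcnd) channels carry the transient A-type current that is known to pace dopamine neurons. The Kv7 (Kcnq) channels carry the slow M-current, the Kcnh genes encode the EAG, ERG and ELK channels, and the Kcng, Kcns and Kcnv genes encode subunits that are electrically silent alone and modify Kv2 (Kcnb) channels.

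The classes were gated on raw UMIs, the counted RNA molecules of a nucleus. Dopamine nuclei had at least 2 UMIs each of Th and Slc6a3, GABA nuclei at least 2 of Gad1, and glutamate nuclei at least 2 of Slc17a6 with Gad1 at 0. At least 1 UMI was asked of Slc26a7 and Gad2 together, of Mog and Mobp together (oligodendrocytes), of Pdgfra (oligodendrocyte precursors) and of Gja1 and Aqp4 together (astrocytes). The gates held 283 dopamine, 142 Slc26a7/Gad2, 1089 GABA, 1486 glutamate, 8471 oligodendrocyte, 1543 precursor and 1836 astrocyte nuclei. They took 14850 of 20620 kept nuclei, while 5486 passed no gate and 284 passed several and were left out. Library totals ran from 19714338 to 25824289 UMIs, and library pairs shared 4 to 9 cell barcodes. Median UMIs per nucleus were 7841 to 10835 in dopamine nuclei and 1927.5 to 2944 in oligodendrocytes, and a class summed 246662 UMIs (Slc26a7/Gad2) or more in each library.

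Markers not used by a gate were checked in each class. All 8 dopamine markers reached 20 CPM (counts scaled to a fixed total) in dopamine nuclei, with a summed level of 2744 to 3399 CPM over libraries. In Slc26a7/Gad2 nuclei 6 of the 8 did so, at a summed 978 to 1271 CPM. The number was 4 in glutamate nuclei (162 to 192 CPM), 2 in GABA nuclei (83.9 to 110 CPM) and 2 in astrocytes (174 to 254 CPM). Of the 5 GABA markers, 4 reached that level in GABA nuclei (316 to 409 CPM), 1 in Slc26a7/Gad2 nuclei (215 to 303 CPM) and 0 in dopamine nuclei (4.22 to 15.8 CPM, Gata2 and Sox14 at 0). The summed level of the 8 glutamate markers was alike in glutamate (258 to 356 CPM), dopamine (266 to 350 CPM) and Slc26a7/Gad2 nuclei (280 to 330 CPM), with 4, 2 and 2 of them at 20 CPM, and Foxb1 and Slc17a7 were at 0 in dopamine nuclei. The 6 oligodendrocyte markers summed to 183 to 378 CPM in the 4 neuron classes and to 23081 to 39532 CPM in oligodendrocytes.

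Of the members with the largest differences in dopamine nuclei, 4 that have a promoter entry in RefSeq are shown by the 250 bases before their start of transcription (GRCr8, a later build than the rn6 named in the submitters' processing notes). The letters are given 5′ to 3′ on the gene's strand, with CG dinucleotides, the sites of DNA methylation, in capitals. Kcnd3 (chr2:195626066-195626315, plus strand), Kcns3 (chr6:39584106-39584355, minus strand) and Kcng3 (chr6:16803592-16803841, plus strand) were high in dopamine nuclei, and Kcnc1 (chr1:106038997-106039246, plus strand) was low there.
Kcnd3: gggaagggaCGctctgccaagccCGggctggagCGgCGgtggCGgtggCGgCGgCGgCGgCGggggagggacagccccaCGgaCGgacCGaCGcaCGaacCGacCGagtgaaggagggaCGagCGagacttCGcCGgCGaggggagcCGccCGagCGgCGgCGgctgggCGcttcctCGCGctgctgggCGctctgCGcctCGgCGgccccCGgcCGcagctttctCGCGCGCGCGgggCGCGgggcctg
Kcns3: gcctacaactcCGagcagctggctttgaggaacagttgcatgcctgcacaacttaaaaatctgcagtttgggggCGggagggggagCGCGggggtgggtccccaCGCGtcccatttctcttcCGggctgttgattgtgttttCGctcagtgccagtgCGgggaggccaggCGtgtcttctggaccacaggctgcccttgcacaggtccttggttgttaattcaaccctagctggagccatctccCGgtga
Kcng3: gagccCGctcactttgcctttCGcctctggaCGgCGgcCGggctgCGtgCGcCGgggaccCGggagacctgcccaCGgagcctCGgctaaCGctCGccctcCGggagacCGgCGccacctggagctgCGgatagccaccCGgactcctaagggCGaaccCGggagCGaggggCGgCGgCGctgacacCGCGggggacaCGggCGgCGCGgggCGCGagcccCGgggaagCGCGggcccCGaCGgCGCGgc
Kcnc1: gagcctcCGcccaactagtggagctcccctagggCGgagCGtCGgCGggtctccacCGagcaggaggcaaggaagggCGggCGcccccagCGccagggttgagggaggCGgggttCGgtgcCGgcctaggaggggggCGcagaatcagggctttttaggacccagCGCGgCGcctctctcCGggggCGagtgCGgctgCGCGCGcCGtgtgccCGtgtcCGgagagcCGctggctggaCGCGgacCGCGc
These windows held 43, 11, 39 and 30 CG dinucleotides in that order, against a median of 18 over the 25 entries of members and 5 over all 33469 promoters. The Kcnd3 window held more than 99.3% of all promoters did. Kcns3 has a further annotated start (chr6:39583395-39583644), whose window held 27. Kcnq5, also among the members with the largest differences, has an entry that is not shown, whose window held 20. These 3 motifs were searched on both strands, the NBRE bound by Nr4a2 (AAAGGTCA, in 1.24% of all promoters), a Pitx site (TAATCC, 6.34%) and a TATA box (TATAAA, 12.9%). None of their letters occur in the windows shown, which says nothing of binding elsewhere. Among the other entries of members, the NBRE letters occur in Kcnh1, which was low in dopamine nuclei, and Kcnc4. The Pitx letters occur in Kcng4.

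The summed level of the members was highest in the neuron classes. It was 3653 ± 211 CPM (SD, n = 4 libraries, as for all means) in dopamine nuclei, 3771 ± 265 in Slc26a7/Gad2 nuclei, 3091 ± 185 in GABA nuclei and 3380 ± 121 in glutamate nuclei. Precursors had 2063 ± 125, oligodendrocytes 1958 ± 247 and astrocytes 1778 ± 168 CPM. Breadth differed more than the sum: 17 to 19 members reached 20 CPM in each neuron class and 17 in precursors, but 9 in astrocytes and 4 in oligodendrocytes. The number of all genes at 20 CPM in each class is not given here, so these counts have no background beside them. At the low end, Kcna3 and Kcna7 had 0 UMIs in all libraries, Kcna10 had 2, Kcna5 had 6, Kcnv2 had 20, Kcns1 had 41 and Kcns2 had 44. Beyond these, 18 members had over 1000 UMIs, and 28 passed the filter on low counts in at least 1 class comparison. Kcnd2 and Kcnb2 were not found by symbol among the features, so they were not analysed.

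**Figure D1:**
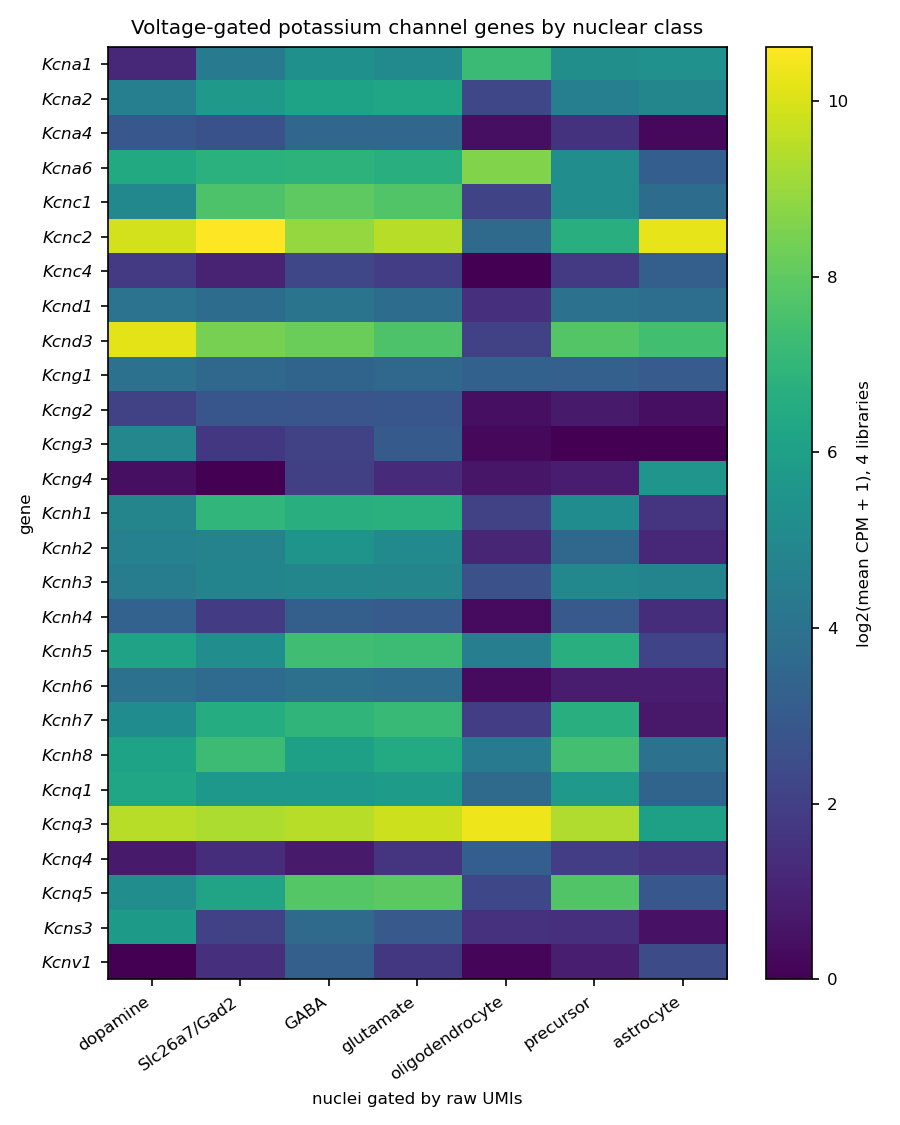
Levels of the reported members (rows) that reached 5 CPM in at least 1 class (columns), as log2(mean CPM + 1) over the 4 libraries, dark to bright. Kcnd3 is brightest in dopamine nuclei, Kcnc2 in Slc26a7/Gad2 nuclei and astrocytes, and Kcnq3 in oligodendrocytes, where most other rows are dark. Rows are compared along a row, since levels of different genes are not corrected for length.

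Dopamine nuclei were compared with GABA and with glutamate nuclei of the same libraries. They had more Kcnd3, Kcns3, Kcng3 and Kcnc2 and less Kcna1, Kcnc1, Kcnq5, Kcnh1, Kcnh7 and Kcna2 than either. Against GABA nuclei, 5 members were higher and 10 lower of 25 tested (edgeR quasi-likelihood test on summed UMIs, Benjamini-Hochberg adjusted p under 0.05 over all genes tested), while 32.9% of all 10836 genes tested were called (16.3% higher, 16.5% lower). Against glutamate nuclei 5 were higher and 9 lower, beside 27.7% of all genes (14.1% higher, 13.6% lower). The median member differed by 0.02 and -0.27 on the log2 scale, against a median near 0 for all genes. Both comparisons use the same dopamine sums, so the second is no repeat of the first.

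Kcnd3 encodes the Kv4 subunit of the A-type current. Its level in dopamine nuclei was 1141 and 1250 CPM in the first and second female library and 1116 and 1136 in the first and second male library. GABA nuclei had 253, 344, 296 and 290 CPM and glutamate nuclei 190, 173, 210 and 230 CPM in that order of libraries. The lowest dopamine library was thus above every other class, Slc26a7/Gad2 nuclei (273 to 418 CPM) included. The log2 fold change was 2.06 ± 0.10 (SE) against GABA nuclei (edgeR adjusted p = 1.62e-15) and 2.59 ± 0.10 against glutamate nuclei (adjusted p = 1.9e-17). With every nucleus thinned to 2000 UMIs, 82.5% ± 1.69 of dopamine nuclei were expected to hold a Kcnd3 UMI, against 39.2% ± 4.22 of GABA nuclei and 0.544% ± 0.102 of oligodendrocytes. Unthinned shares were 98.2%, 73.2% and 0.715%, at median depths of 7841 to 10835, 6278 to 8279 and 1927.5 to 2944 UMIs. The other tested Kv4 gene, Kcnd1, had 15.7 ± 9.67 CPM in dopamine nuclei and 16.2 ± 1.24 in GABA nuclei and passed neither test.

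The silent subunits Kcns3 and Kcng3 were scarce RNAs whose highest level was in dopamine nuclei. Kcns3 had 73.2, 36.1, 48.8 and 56.4 CPM in the dopamine libraries in the same order, against 10.6 to 14.4 in GABA and 4.33 to 9.54 in glutamate nuclei. Its log2 fold change was 2.26 ± 0.20 and 3.07 ± 0.21 (edgeR adjusted p = 4.54e-10 and 1.93e-12). Kcng3 had 19.7, 39.0, 25.1 and 31.0 CPM in dopamine nuclei, against 2.35 to 4.88 in GABA and 3.61 to 9.77 in glutamate nuclei, a log2 fold change of 3.10 ± 0.33 and 2.14 ± 0.28 (adjusted p = 1.49e-08 and 7.03e-07). The groups did not overlap for either gene. At 2000 UMIs 7.59% ± 1.89 of dopamine nuclei were expected to hold a Kcns3 UMI and 5.54% ± 1.64 a Kcng3 UMI (unthinned, 25.6% and 21.2%), against 1.93% and 0.640% of GABA nuclei (6.20% and 2.46%) and 0.419% and 0.0191% of oligodendrocytes (0.507% and 0.0498%).

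**Figure D2:**
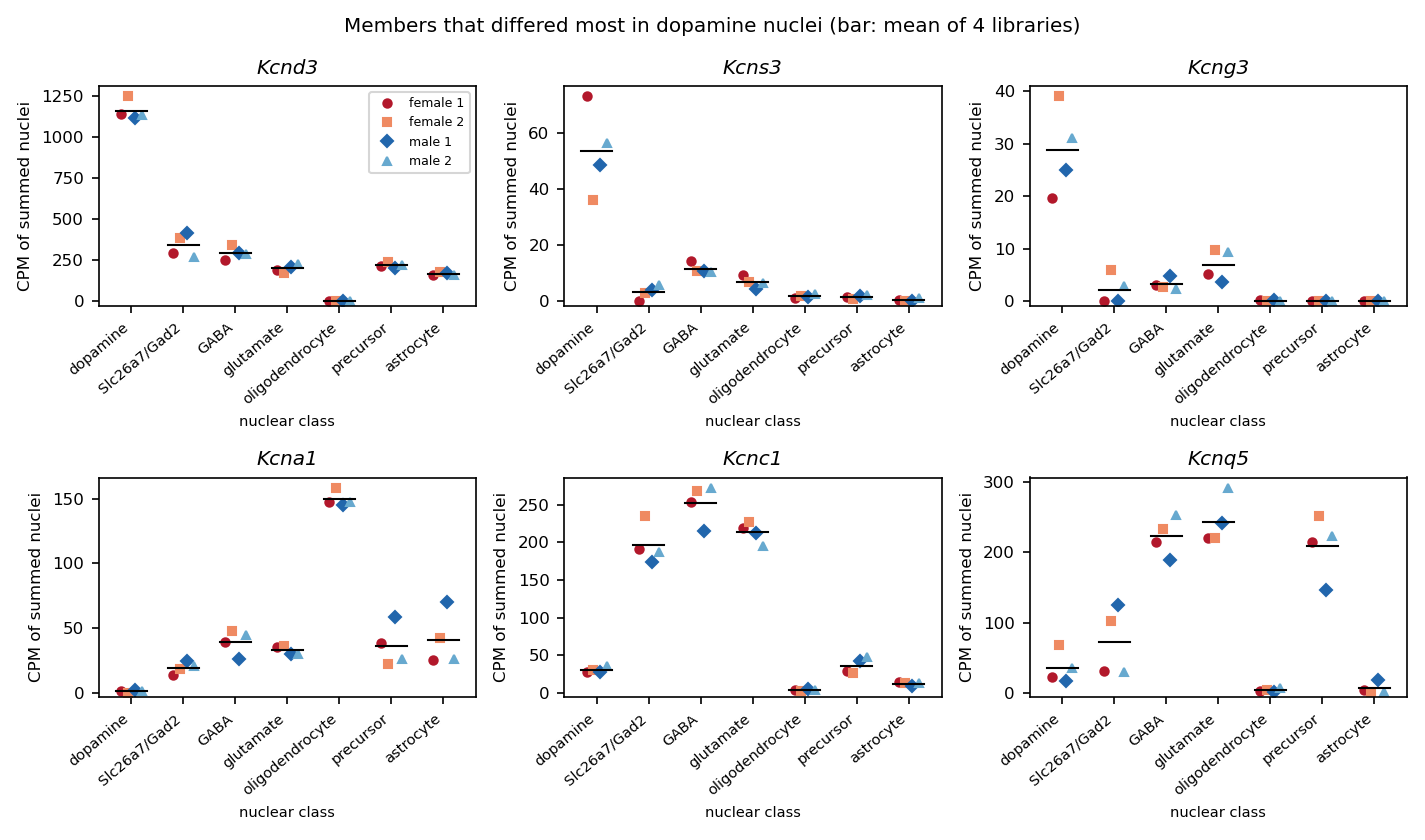
Each panel shows 1 gene, with CPM of the summed nuclei on a linear axis for the 7 classes, a point per library (colours and shapes name the 4 libraries) and a bar at the mean. Kcnd3, Kcns3 and Kcng3 are highest in dopamine nuclei in every library, while Kcna1, Kcnc1 and Kcnq5 are low there and higher in GABA and glutamate nuclei.

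The Kv1 genes Kcna1 and Kcna2 and the Kv3 gene Kcnc1 went the other way. Kcna1, an axonal Kv1 subunit, was close to absent from dopamine nuclei: 1, 0, 2 and 1 UMIs in the 4 libraries, 0 to 2.64 CPM. GABA nuclei had 25.9 to 48.2 CPM and glutamate nuclei 29.8 to 36.2. Pooled over libraries, 353 UMIs in GABA nuclei against 4 in dopamine nuclei gave a ratio of 27.9 (95% interval 10.8 to 103, exact and for counting error only), and for glutamate nuclei the ratio was 23.2 (8.998 to 85.5). Fitted log2 fold changes were -4.65 ± 0.41 and -4.43 ± 0.41 (edgeR adjusted p = 3.31e-10 and 1.57e-09). Its relative Kcna2 had 17.3 to 28.2 CPM in dopamine nuclei, 59.0 to 79.4 in GABA and 67.4 to 86.0 in glutamate nuclei (-1.52 ± 0.17 and -1.66 ± 0.17, adjusted p = 5.04e-08 and 6.85e-09). Kcna6 was lower than in GABA nuclei (71.7 to 104 against 101 to 124 CPM) and did not pass against glutamate nuclei (91.4 to 108 CPM).

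Kcnc1, a Kv3 subunit of fast-firing neurons, had 28.1, 30.3, 27.7 and 35.2 CPM in dopamine nuclei. GABA nuclei had 253, 268, 216 and 273 CPM and glutamate nuclei 195 to 227. The groups were far apart, with log2 fold changes of -2.96 ± 0.13 and -2.74 ± 0.13 (edgeR adjusted p = 1.2e-16 and 8.74e-16). At 2000 UMIs 5.91% ± 0.607 of dopamine nuclei were expected to hold a Kcnc1 UMI, against 37.4% ± 2.99 of GABA nuclei and 0.572% of oligodendrocytes (unthinned, 23.2%, 77.2% and 0.825%). Kcnc2, of the same Kv3 family, moved the opposite way: 858 to 1069 CPM in dopamine nuclei, 407 to 575 in GABA and 626 to 803 in glutamate nuclei (1.04 ± 0.10 and 0.49 ± 0.10, adjusted p = 2.48e-09 and 0.000334).

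Of the Kv7 genes, Kcnq5 was lower and Kcnq1 higher in both comparisons. Kcnq5 had 22.5, 67.9, 17.2 and 35.2 CPM there, against 190 to 253 in GABA and 220 to 292 in glutamate nuclei (log2 fold change -2.58 ± 0.23 and -2.73 ± 0.23, edgeR adjusted p = 6.82e-10 and 1.82e-10). Female 2 was the highest dopamine library and still below every GABA and glutamate library. Kcnq3, which encodes a subunit of the M-channel, had 702 ± 52.1 CPM in dopamine, 702 ± 44.3 in GABA and 887 ± 27.2 in glutamate nuclei. It did not pass against GABA nuclei (0.08 ± 0.09, edgeR adjusted p = 0.549, with a sign that flips under total-UMI scaling) and was lower than in glutamate nuclei by a small step (-0.27 ± 0.09, adjusted p = 0.0277). That call was lost without female 1 (adjusted p = 0.149) or male 2 (0.119), within 0.00256 to 0.149 over 14 alternatives.

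Kcnh genes that passed both tests were lower in dopamine nuclei. Kcnh1, an EAG channel gene, had 21.1 to 32.4 CPM against 93.6 to 109 in GABA and 87.0 to 116 in glutamate nuclei (-1.81 ± 0.17 and -1.86 ± 0.16, edgeR adjusted p = 9.75e-10 and 4.37e-10). Kcnh7, an ERG channel gene, had 26.4 to 45.1 CPM against 98.7 to 149 and 121 to 149 (-1.71 ± 0.20 and -1.94 ± 0.20, adjusted p = 9e-08 and 6.26e-09). Kcnh5 passed both tests too, at 69.2 ± 15.5 CPM in dopamine, 162 ± 31.0 in GABA and 152 ± 30.9 in glutamate nuclei. Kcnh2 was called lower than in GABA nuclei (19.7 to 29.0 against 39.4 to 49.6 CPM) and missed the threshold against glutamate nuclei (25.4 to 38.0 CPM), a difference between the tests that was not itself tested, and Kcnh3, Kcnh4, Kcnh6 and Kcnh8 passed neither.

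**Figure D3:**
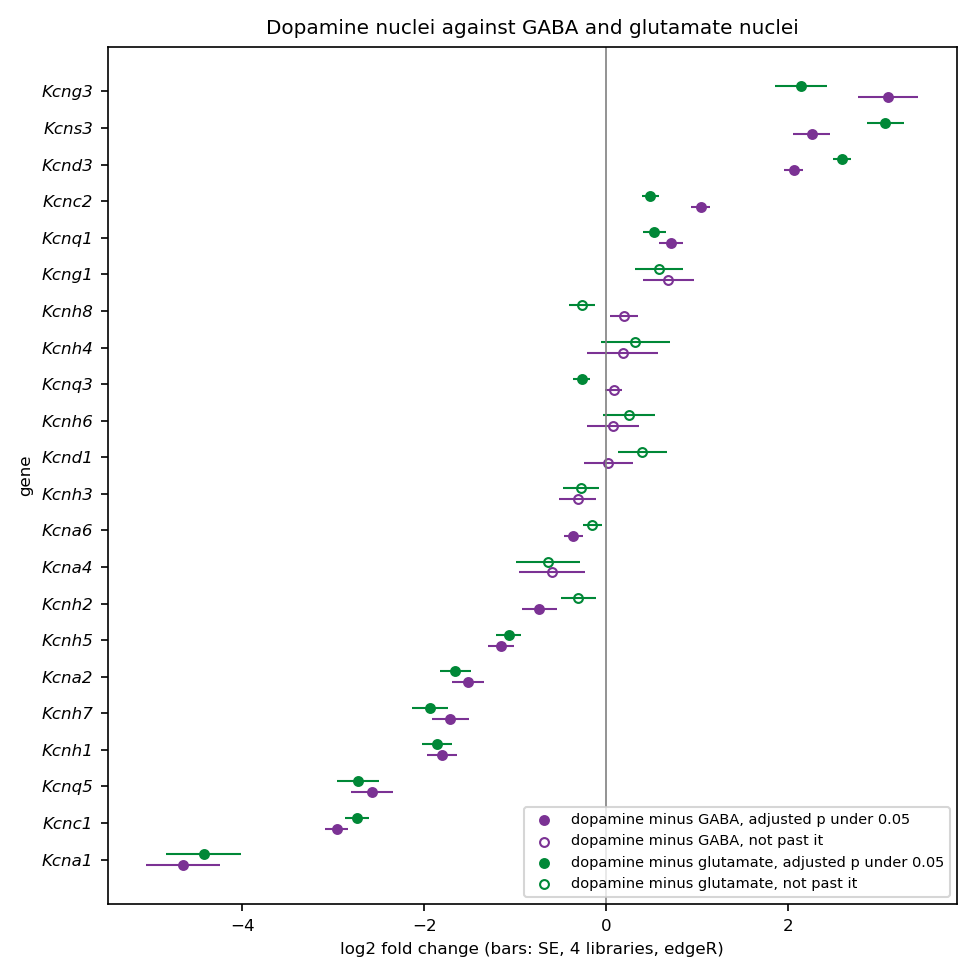
Log2 fold changes of 22 of the 25 tested members in dopamine nuclei against GABA (purple) and glutamate (green) nuclei, with SE bars from 4 libraries. Filled points passed an edgeR adjusted p of 0.05 and open points did not. Kcng3, Kcns3 and Kcnd3 lie above 2 in both comparisons, and Kcna1, Kcnc1 and Kcnq5 lie below -2 in both.

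Depth limits which of these members can be checked at equal depth. With every nucleus thinned to 2000 UMIs before summing, 17 members passed the filter and 8 were called in each comparison (2 higher, 6 lower). The 8 were Kcnd3, Kcnc2, Kcnc1, Kcnq5, Kcnh1, Kcnh7, Kcna2 and Kcnh5 in both, all of them called at full depth too. Kcna1, Kcns3 and Kcng3 fell under the filter there, so for them no value at equal depth was tested. Other reported members called at full depth were not called there. They were Kcnq1 in both comparisons, Kcna6 and Kcnh2 against GABA nuclei and Kcnq3 against glutamate nuclei. Other RefSeq genes overlap Kcnd3, Kcnc1, Kcnq1, Kcnq3, Kcnq5 and Kcnh8 (mainly uncharacterised loci) and Kcnh7 (Gca among them), and the sources used here do not say how reads in such overlaps were assigned.

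Proteins that bind or accompany these channels were taken from 3 lists, chosen with earlier results of these data known. Of 8 tested auxiliary subunits, 3 were higher and 2 lower in dopamine than in GABA nuclei (32.9% of all genes were called), and 5 were higher and 3 lower than in glutamate nuclei (27.7% of all genes). The Kv4 partners split: Kcnip1, a calcium-binding Kv4 subunit, had 26.0 to 57.8 CPM in dopamine nuclei against 482 to 755 in GABA and 254 to 318 in glutamate nuclei (-3.79 ± 0.15 and -2.76 ± 0.16, edgeR adjusted p = 3.02e-17 and 8.29e-14). Kcnip4, of the same family, had 350 to 503 CPM against 166 to 234 and 92.0 to 130 (1.03 ± 0.11 and 2.00 ± 0.11, adjusted p = 6.65e-09 and 2.08e-14). Amigo1, a Kv2 partner, was lower (11.1 ± 3.20 CPM against 41.9 ± 6.45 and 25.9 ± 4.21), and both calls were lost at equal depth. Of 9 tested clustering and anchoring genes, 1 was higher and 3 lower than in GABA nuclei, and 1 higher and 4 lower than in glutamate nuclei, beside the same shares of all genes. Cntnap2, also on this list, was not found by symbol among the features. Cntn2, an adhesion molecule of the Kv1 clusters of axons, was among the lower ones in both (19.5 ± 2.46 CPM against 42.3 ± 6.31 and 49.9 ± 2.65), and its call against GABA nuclei was lost at equal depth.

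Among 7 tested calcium- and sodium-activated potassium channel genes, 4 were higher and 2 lower in dopamine than in GABA nuclei, and 3 higher and 2 lower than in glutamate nuclei, beside 32.9% and 27.7% of all genes called. Kcnn3, an SK channel gene, had 333, 331, 372 and 303 CPM in dopamine nuclei against 55.1 to 61.8 in GABA and 58.5 to 72.8 in glutamate nuclei. The groups did not overlap (2.60 ± 0.10 and 2.47 ± 0.09, edgeR adjusted p = 5.69e-18 and 5.73e-18). Kcnt2, a sodium-activated channel gene, had 576 ± 53.5 CPM against 230 ± 32.3 and 149 ± 15.0 (1.40 ± 0.10 and 2.03 ± 0.10, adjusted p = 4.81e-12 and 2.79e-15).

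Slc26a7/Gad2 nuclei, which carry 6 of the 8 dopamine markers, differed from dopamine nuclei in 13 of 25 tested members, 8 higher and 5 lower, beside 18.2% of all genes (8.99% higher, 9.21% lower). Kcnd3 was 273 to 418 CPM there, below every dopamine library (-1.81 ± 0.12, edgeR adjusted p = 5.31e-12). Kcnc1 was at 174 to 236 CPM, above every dopamine library (2.66 ± 0.16, adjusted p = 1.08e-12). Kcnh1 had 81.4 to 148 CPM (2.18 ± 0.21, adjusted p = 5.64e-09), and Kcna1 had 14.2 to 24.3 CPM (3.66 ± 0.64, adjusted p = 8.66e-05). Kcnh5 had 35.5 ± 17.1 CPM, each library below all dopamine libraries.

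Kcns3 and Kcng3 were nearly missing from Slc26a7/Gad2 nuclei. Kcns3 gave 4 UMIs and Kcng3 3 UMIs over 4 libraries, against 154 and 82 in dopamine nuclei. Ratios of dopamine to Slc26a7/Gad2 levels were 16.1 (95% interval 6.14 to 59.7) and 11.4 (3.76 to 56.4), exact and for counting error only. The test called both lower (-4.01 ± 0.45 and -3.56 ± 0.63, edgeR adjusted p = 9.69e-08 and 0.000102). Kcnc2, at 1370 to 1696 CPM, was above every dopamine library (0.69 ± 0.10, adjusted p = 1.11e-05). Kcnh7 (50.5 to 142 CPM), Kcnh8 (77.3 to 251) and Kcna2 (29.7 to 63.4) were also higher, with log2 fold changes of 1.41 ± 0.28, 1.04 ± 0.19 and 1.10 ± 0.26 (adjusted p = 0.000516, 0.000131 and 0.00257).

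These nuclei were few, 24 to 43 per library, and at 2000 UMIs per nucleus 4 of 17 tested members were called, Kcnc1 and Kcnh1 higher and Kcnd3 and Kcnh5 lower. There Kcnc2, Kcnh7, Kcnh8 and Kcna2 missed the threshold, with log2 fold changes of 0.36, 1.19, 0.99 and 1.20 (adjusted p = 0.0521, 0.0662, 0.0572 and 0.231). Kcna2 also lost its call without female 2 (adjusted p = 0.0701, within 0.000715 to 0.231 over 14 alternatives). A further 23 nuclei passed both this gate and the dopamine gate and were left out. Of the partner genes, Kcnip1 was higher (113 to 205 CPM, 1.87 ± 0.22, edgeR adjusted p = 2.29e-07), and Kcnn3 (41.6 to 81.1 CPM, -2.57 ± 0.15, adjusted p = 4.3e-13) and Kcnt2 (103 to 178 CPM, -1.96 ± 0.14, adjusted p = 2.08e-11) were lower than in dopamine nuclei.

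GABA and glutamate nuclei differed in fewer of these genes, and in fewer of all genes too, than the other pairs of neuron classes compared. Of 25 tested members, 4 were higher and 3 lower in GABA nuclei, beside 13.6% of all genes (6.51% higher, 7.12% lower). Kcnd3 was higher (0.54 ± 0.10, edgeR adjusted p = 0.000229), and Kcnc2 (-0.55 ± 0.10, adjusted p = 0.000114), Kcnh8 (-0.46 ± 0.11, adjusted p = 0.00496) and Kcnq3 (-0.35 ± 0.09, adjusted p = 0.00521) were lower. Kcnc1 (0.23 ± 0.07, adjusted p = 0.0393) and Kcnh2, the ERG channel gene (0.43 ± 0.12, adjusted p = 0.0182), were higher by small steps. Kcns3, under 20 CPM in both classes, was the other higher member. Kcnc1 and Kcnh2 lost the call without female 2 (adjusted p = 0.121 and 0.101) or male 2 (0.364 and 0.137), and Kcnc1 also without female 1 (0.119). Their ranges over 14 alternatives were 0.0104 to 0.364 and 0.0111 to 0.137. With stricter gates 4 members were called in all, and with no library block 3.

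Neurons as a whole were set against the 3 glial classes. Of 28 tested members, 24 were higher in neurons and 2 lower, beside 75.3% of all 12477 genes (36.8% higher, 38.5% lower), and the median member was 1.96 higher on the log2 scale against -0.03 for all genes. Kcnh7 (3.66 ± 0.19, edgeR adjusted p = 4.86e-20), Kcnh1 (3.41 ± 0.13, adjusted p = 7.19e-24), Kcnh2 (3.40 ± 0.20, adjusted p = 3.6e-18) and Kcnc1 (3.25 ± 0.11, adjusted p = 3.04e-26) had the largest differences among called members at 20 CPM or more in neurons or glia and in 1 direction in all libraries. Kcna1 was lower in neurons (-2.35 ± 0.19, adjusted p = 1.17e-13), and Kcng4 was the other member below 0. The fit averages logs over classes, which hides single glial classes: Kcnq3 was called higher in neurons (0.65 ± 0.08, adjusted p = 2.2e-09), yet its highest level of all was in oligodendrocytes.

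Oligodendrocytes kept few voltage-gated potassium channel genes, and 3 of them were higher than in precursors. Against precursors, 3 members were higher and 17 lower of 22 tested, beside 66.8% of all genes (33.4% higher, 33.3% lower). The median log2 fold change of members was -2.92, against 0.03 for all genes. Kcna6, a Kv1 subunit, had 448, 334, 427 and 336 CPM in oligodendrocytes against 31.0 to 40.7 in precursors and 4.95 to 10.7 in astrocytes. It was above every other class in every library (3.61 ± 0.10 against precursors, edgeR adjusted p = 1.61e-18, and 5.69 ± 0.13 against astrocytes, adjusted p = 1.67e-20). Kcna1 had 148, 158, 145 and 147 CPM against 22.4 to 58.5 in precursors (2.29 ± 0.19, adjusted p = 2.8e-10). Kcnq3 had 1279, 1671, 1022 and 1195 CPM against 570 to 695 (1.18 ± 0.11, adjusted p = 2.6e-09).

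Those 3 RNAs were spread over many oligodendrocytes. At 2000 UMIs 50.2% ± 5.07 were expected to hold a Kcna6 UMI, 25.2% ± 0.969 a Kcna1 UMI and 80.2% ± 5.66 a Kcnq3 UMI (unthinned, 58.7%, 31.9% and 80.6%). In astrocytes the same shares were 1.77%, 7.74% and 6.72% (unthinned, 3.00%, 12.7% and 9.02%). Thinning left out 3047 of 8471 oligodendrocytes, 431 of 1543 precursors and 310 of 1836 astrocytes with fewer UMIs, but 0 to 12 nuclei of each neuron class.

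Most other members were close to absent from oligodendrocytes. Kcnd3 had 202 to 242 CPM in precursors and 2.66 to 3.74 in oligodendrocytes (-5.91 ± 0.12, edgeR adjusted p = 3.61e-21). Kcnq5 (146 to 251 against 1.87 to 7.49 CPM) and Kcnh7 (88.7 to 120 against 1.86 to 3.99) were lower too (-5.49 ± 0.26 and -4.97 ± 0.19, adjusted p = 9.77e-15 and 1.69e-16), as were Kcnh1 and Kcnc1 (-3.24 ± 0.24 and -3.18 ± 0.22, adjusted p = 3.4e-11 and 9.94e-12). Of their partners, 0 of 7 tested auxiliary subunits were higher and 6 lower, among them Kcnip3 (-7.69 ± 0.15, adjusted p = 3.61e-21) and the Kv4 subunit Dpp6 (-5.56 ± 0.12, adjusted p = 2.15e-20). All 6 tested calcium- and sodium-activated channel genes were lower, beside 33.3% of all genes lower in this comparison.

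Of the clustering and anchoring genes, the 3 named by the size rule were Cntn2 and Lgi3, higher in oligodendrocytes, and Lgi1, lower there. Cntn2 had 260 to 339 CPM against 1.72 to 9.99 in precursors (5.98 ± 0.20, edgeR adjusted p = 2.36e-17), and Lgi3, a secreted ligand of Kv1 complexes, had 245 to 412 against 11.2 to 32.4 (4.12 ± 0.13, adjusted p = 5.6e-18). In all, 4 of 9 tested clustering and anchoring genes were higher and 3 lower, near the shares of all genes (33.4% higher, 33.3% lower). Lgi1 was among the lower (-3.44 ± 0.26, edgeR adjusted p = 5.51e-11). The other genes called were Adam22, Dlg2, Dlg4 and Ank3.

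In astrocytes Kcnc2 and Kcng4 were high. Against precursors, 3 members were higher and 14 lower of 22 tested, beside 57% of all genes (29% higher, 28% lower), with a median of -1.67. Kcnc2 had 1295, 1326, 1072 and 1090 CPM in astrocytes against 79.2 to 130 in precursors and 9.15 to 16.4 in oligodendrocytes (3.70 ± 0.12 against precursors, edgeR adjusted p = 1.43e-17). That level was above the 858 to 1069 CPM of dopamine nuclei in each library and below the 1370 to 1696 of Slc26a7/Gad2 nuclei. At 2000 UMIs 66.4% ± 5.44 of astrocytes were expected to hold a Kcnc2 UMI (unthinned, 70.3%), against 1.11% ± 0.145 of oligodendrocytes (1.53%). Neuron markers summed to 95.04 to 264 CPM in astrocytes and to 3389 to 8526 CPM in the 4 neuron classes, and their part in the astrocyte level was not tested.

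Kcng4, a silent subunit gene, had 37.9, 57.9, 43.6 and 44.2 CPM in astrocytes and at most 4.69 CPM in any library of another class (6.23 ± 0.40 against precursors, edgeR adjusted p = 6.07e-12). At 2000 UMIs 9.10% ± 1.90 of astrocytes were expected to hold a UMI of it (unthinned, 15.4%), against 0.0917% of oligodendrocytes (0.157%). Kcnh7 was at 0 to 1.15 CPM in astrocytes (-7.17 ± 0.33, adjusted p = 1.09e-14), Kcnq5 at 1.26 to 18.3 (-5.46 ± 0.34, adjusted p = 2.54e-12) and Kcnq3 at 29.8 to 92.8 (-3.17 ± 0.14, adjusted p = 5.21e-15). Kcnd3 differed little between the 2 classes (160 to 176 against 202 to 242 CPM, -0.25 ± 0.08, adjusted p = 0.00989, and 0.0541 by DESeq2). Kcna2 was called higher (0.46 ± 0.19, adjusted p = 0.0488), a call lost in 11 of 14 alternatives, also without female 1, female 2 or male 2 (adjusted p = 0.412, 0.105 and 0.0900, within 0.00451 to 0.511). Lgi1, a ligand of Kv1 complexes, was higher in astrocytes (514 to 859 against 37.6 to 78.5 CPM, 3.80 ± 0.16, adjusted p = 3.44e-15).

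**Figure D4:**
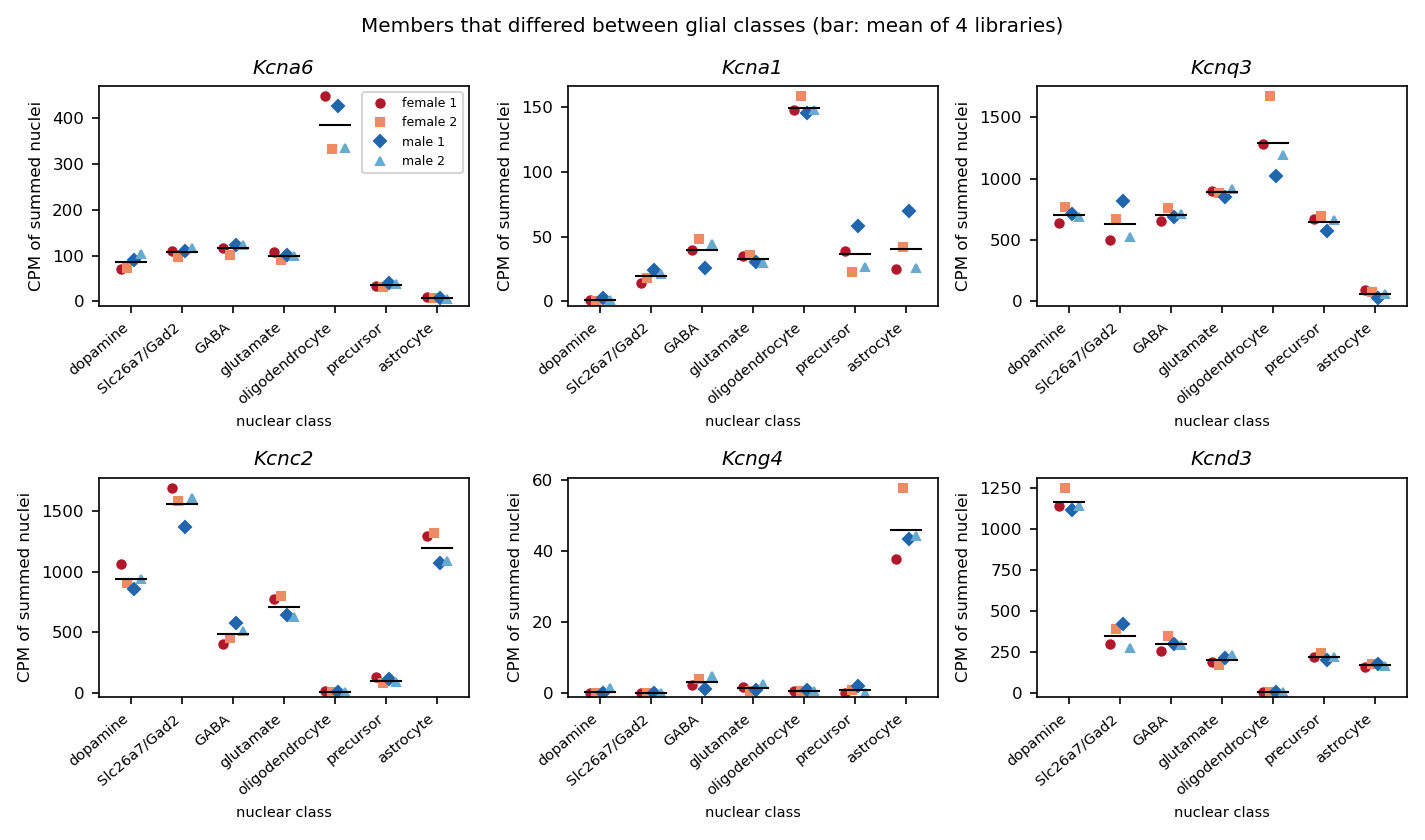
Each panel shows 1 gene, with CPM of the summed nuclei on a linear axis for the 7 classes, a point per library and a bar at the mean. Kcna6 and Kcna1 are highest in oligodendrocytes in every library and Kcng4 in astrocytes. Kcnc2 is high in astrocytes and neurons and near 0 in oligodendrocytes, and Kcnd3 is near 0 in oligodendrocytes alone.

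Oligodendrocytes and astrocytes differed in 15 of 22 tested members, 5 higher and 10 lower in oligodendrocytes, beside 69.9% of all genes (35.2% higher, 34.7% lower), so the share among members was near that of all genes. Kcnq3 was higher in oligodendrocytes by 4.35 ± 0.14 on the log2 scale (edgeR adjusted p = 4.69e-18), and Kcnc2 was lower (-6.64 ± 0.13, adjusted p = 1.28e-21). Precursors resembled neurons in the number of members at 20 CPM, 17 against 17 to 19 in the neuron classes. Per nucleus at equal depth they held fewer, an expected 2.72 to 3.12 members over libraries against 3.64 to 4.31 in the neuron classes. Kcnq5 had 146 to 251 CPM in precursors, above every dopamine library. Its values overlapped those of GABA and glutamate nuclei, whose libraries were all above the lowest precursor library. Kcnh8 had 142 to 202 CPM in precursors, a mean of 175 ± 25.9, above the mean of each neuron class (65.3 to 154 CPM), a difference that was not tested. Neuron markers reached 921 to 1399 CPM in precursors, above the other glia, and their part in these levels was not tested.

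Female and male libraries were compared within each class, 2 against 2. No member was called in any of the 7 classes by edgeR (0 of 22 tested in dopamine, 15 in Slc26a7/Gad2, 27 in GABA, 28 in glutamate, 20 in oligodendrocyte, 20 in precursor and 16 in astrocyte nuclei), nor by DESeq2. At an unadjusted p under 0.05 there were 1, 2, 2, 3, 2, 3 and 4 members in that order. Shares of all genes called were 0.0682%, 0.0481%, 0.0944%, 0.0558%, 0.0515%, 0.109% and 0.0982%. In the test of sex by class 0 of 30 members were called (6 at an unadjusted p under 0.05), beside 0.184% of all genes.

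The smallest p-value belonged to Kcnh7 in Slc26a7/Gad2 nuclei, with 142 and 136 CPM in females and 52.7 and 50.5 in males (1.42 ± 0.30, edgeR adjusted p = 0.317, within 0.0271 to 1.00 over 13 alternatives). Kcnh8 in GABA nuclei had 74.1 and 82.7 CPM in females against 51.9 and 52.8 in males (0.61 ± 0.17, edgeR adjusted p = 0.620). Both female libraries were also above both male ones in dopamine, Slc26a7/Gad2, glutamate and precursor nuclei, with no call in any of these classes. All classes come from the same libraries, so they do not repeat each other. The share of all genes with such an order was not computed. Neither gene passed the correction. Without female 1 or male 2 some sex calls appeared, and the count then reached 3 in oligodendrocytes (Kcnq1, Kcnh5 and Kcnq3, without female 1) and 1 in dopamine nuclei (Kcnq1, without male 2), GABA nuclei (Kcnq1, without female 1) and astrocytes (Kcnq3, without male 2). Without female 2 the count was 1 in Slc26a7/Gad2 nuclei (Kcnh8).

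Kcnq1, a Kv7 gene known from heart and epithelia, was split by library number in every class. In dopamine nuclei it had 53.5 and 126 CPM in the female libraries and 30.3 and 101 in the male ones, and in GABA nuclei 33.2, 81.1, 26.3 and 55.7. The second library of each sex was above the first in all 7 classes. Within each library Kcnq1 was higher in dopamine than in GABA and glutamate nuclei, and it was called higher in both comparisons.

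**Figure D5:**
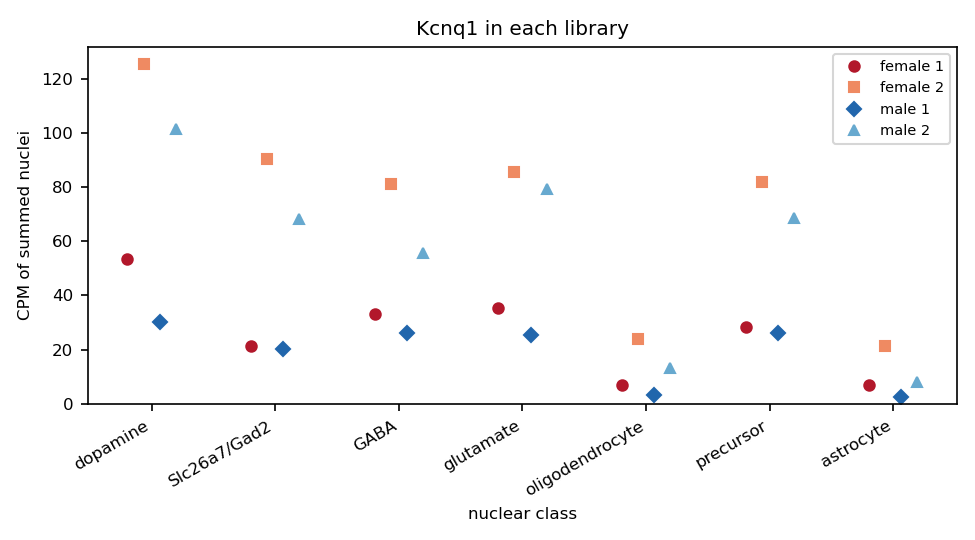
CPM of Kcnq1 (vertical axis, linear) in the 7 classes, a point per library with colours and shapes as in the legend. The second female and second male library lie above the first of each sex in every class, for example 126 and 101 against 53.5 and 30.3 CPM in dopamine nuclei.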

How the data were processed

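Nuclei of the ventral tegmental area were profiled by single-nucleus RNA-seq in 4 libraries. The deposited matrices hold UMI counts per gene and barcode that the authors made with Cell Ranger on the rn6 genome, per the submitters' processing notes; the file headers give software version 3.0.2. No source used here says how reads in introns or overlapping genes were assigned.

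Nuclei with at least 200 genes and at most 5% UMIs of 13 mitochondrial genes were kept (6 removed), and Scrublet in scanpy 1.11.5 was set to remove 0.8% doublets per 1000 barcodes (980 of 21606; its own threshold marked 501). Nuclei passing several gates were left out, except that the glutamate gate gave way to the dopamine and Slc26a7/Gad2 gates. UMIs were summed per library and class, and CPM is the count relative to the total UMIs of each sum. Sums were tested with edgeR 4.0.16 in R 4.3.3 (quasi-likelihood, TMM, filterByExpr), with the library as a block between classes and no covariate between sexes. Gate genes were left out of the tests. P-values were Benjamini-Hochberg adjusted over all genes tested, with a threshold of 0.05, and the procedure was tested on simulated data. There 2.05% to 5.56% of calls were false, the most for dopamine minus GABA nuclei. Of changes of 1 on the log2 scale, 73% to 97.9% were recovered, the fewest between sexes in dopamine nuclei. Changes were set only in well-counted genes with a fixed spread, so scarce members were not covered. The standard error was taken from the fold change and its F statistic. Shares at 2000 UMIs are expected values per nucleus. Intervals cover counting error only, and the ± of a share is the SD over libraries.

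Named members were, per class comparison, up to 8 called members with the largest difference, at least 20 CPM in a class compared and 1 direction in all 4 libraries, plus a fixed list that includes Kcna1, Kcna2, Kcnc2, Kcnd3, Kcnh7, Kcnq3 and Kcnq5; up to 3 genes per partner list followed the same size rule. Kcnq1, Kcna6, Kcnh5 and the lowest-p gene of each sex test outside this rule were chosen after their values were seen. Individual results of 3 members are not reported here; they stay in every fit and in the counts over members. The members, gates and lists were chosen with earlier results of these data known. Alternatives were DESeq2 1.42.0, its size factors or total UMIs for scaling, no minimum count, leaving out each library, doublets kept, first gate passed, stricter gates, stricter filters on nuclei (500 genes, 1% mitochondrial UMIs), thinning to 2000 UMIs, and other blocks.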

Additional observations from a re-analysis of the deposited data

Results flagged for a closer look

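In 4 of 87 sets of 4 libraries (named members with at least 50 UMIs in a class), 1 library lay far from the other 3 by Dixon's criterion, which chance meets in about 1 in 20 sets. In GABA nuclei Kcnh5 was at 208 CPM in female 2 (lowest 141) and Kcns3 at 14.4 CPM in female 1 (lowest 10.6). In Slc26a7/Gad2 nuclei Kcnh1 was at 81.4 CPM in female 1 (highest 148). In oligodendrocytes Kcna2 was at 3.15 CPM in female 2 (highest 3.99).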

How the results depend on the processing

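Over 77 member and comparison pairs, 1069 alternative values were computed: 1032 kept their direction and side of the threshold, 36 kept the direction and lost the call, and 1 changed sign, Kcnq3 in dopamine minus GABA nuclei with total UMIs (-0.0011), a pair that was not called. Thinning gave 8 called members against GABA, 8 against glutamate and 4 between Slc26a7/Gad2 and dopamine nuclei, with 17 members tested. GABA minus glutamate nuclei had 4 with stricter gates and 3 with no library block. With no filter on low counts, 3 members were called between sexes in oligodendrocytes and 4 in the test of sex by class. The cause was not tested. Leaving out each library gave 14 to 16 (dopamine minus GABA), 13 to 14 (dopamine minus glutamate), 11 to 14 (Slc26a7/Gad2 minus dopamine), 5 to 7 (GABA minus glutamate), 20 to 21 (oligodendrocyte minus precursor), 15 to 17 (astrocyte minus precursor), 15 to 18 (oligodendrocyte minus astrocyte) and 24 to 26 (neurons minus glia). Between sexes it gave 0 to 1 in dopamine, Slc26a7/Gad2, GABA and astrocyte nuclei, 0 to 3 in oligodendrocytes, and 0 in glutamate and precursor nuclei and for sex by class; a lone library is then assumed to vary like the other sex. Scaling by total UMIs moved the median of all genes to 0.24 (neurons minus glia), -0.17 (oligodendrocyte minus precursor) and -0.14 (astrocyte minus precursor).

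With the replicate block, the shared library number as a term, the sex comparison called 1 member in Slc26a7/Gad2 nuclei (Kcnh7, adjusted p = 0.0271), 3 in oligodendrocytes (Kcnq1, Kcnh5 and Kcnq3), 1 in astrocytes (Kcnq3) and 0 in the other 4 classes. Deviations of same-numbered libraries correlated at -0.0467 to 0.284 over genes, above 0.1 in GABA (0.137), glutamate (0.244) and astrocyte nuclei (0.209) and oligodendrocytes (0.284). The labels do not say whether a number marks a shared batch, and 2 pairs are too few to decide it from the data. Depth limits members under 50 UMIs (7 of 37) and the 142 Slc26a7/Gad2 nuclei most.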

Other observations

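Kcnq1 was singled out after its values were seen. The ratio of the second to the first library was 2.35 to 4.26 in females and 2.12 to 4.27 in males over the 6 classes with enough UMIs. It was the only member of the 30 checked whose ratio was above 1.5 in both sexes in all of its classes. Over whole libraries it had 484 and 1247 UMIs in the female libraries and 364 and 1204 in the male ones.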
